A study of Mus musculus with 6 samples.

Results

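Type I interferon-stimulated antiviral genes were described in the livers of NZB and SM mice. They are 36 genes taken by name, covering the IFIT, OAS and MX families, sensors of viral RNA, the ISG15 system, PARP genes, and receptors and transcription factors of the pathway. All probe sets of the deposited value table whose platform gene symbol or alias was one of these names were used. They came to 55 probe sets paired with 1 gene alone, covering 33 of the genes, out of 45037 probe sets and 18193 genes on the arrays. Isg15 was read only through a probe set that the annotation also pairs with the predicted gene Gm9706, and a further probe set is paired with both Trim30a and Trim30d. Oas1g and Ifi44 had no probe set under these names and were not analysed here.

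Liver RNA came from 3 biological replicates of the inbred strain SM/J (SM) and 3 of the inbred strain NZB/BinJ (NZB), each on its own single-color array. A replicate is read here as 1 mouse, although the labels do not say whether mice were pooled. All 6 were females of 8 weeks on chow, weaned at 3 weeks, fasted for 4 hours before dissection and perfused with 50 mL of sterile PBS. The labels name no infection or interferon injection. The mean over 6 hepatocyte markers was 14.1 on the SM arrays and 14.0 to 14.1 on the NZB arrays, near the top of the log2 scale.

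Type I interferons are secreted proteins that act through a receptor made of the IFNAR1 and IFNAR2 chains. The receptor activates transcription factors, STAT2 and IRF9 among them, which bind interferon-stimulated response elements in DNA and turn on antiviral genes. The products of these genes sense foreign nucleic acids, block viral replication or feed back on the pathway. Liver expresses a low basal level of many of them without infection.

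The response element is recognised by GAAA words spaced 2 bases apart. The letters GAAANNGAAA were therefore searched on both strands, where they read TTTCNNTTTC on the reverse strand, with overlapping matches counted. The search covered RefSeq promoter windows of 300 bases, 250 before and 50 after a start, in build GRCm38.p6. Of the 36 genes, 25 had a window, and 13 of these (52.0%) held the letters, against 3.99% of all 27025 genes with a window. The windows are those of the reference strain, not of SM or NZB, and a match describes letters, not a bound site. The following stretches are examples, picked among genes that hold the letters and show 1 of 2 patterns in the values. Ifit1, Ifit3, Oas1a and Stat2 were low on 1 SM array, and Rsad2, Bst2 and the probe set shared by Isg15 read higher in NZB. Other genes low on that SM array, among them Irf7, Irf9, Ifit2 and Oasl2, did not hold the letters. Usp18 and Ifi27l2a, also low on it, and Zbp1, also higher in NZB, had no window. Ddx58 and Ifih1 held the letters without being called higher in NZB. That SM array lay close to the mean of the other SM arrays in them, with gaps of -0.031 and -0.078. Eif2ak2, Trim30a, Oas3 and Oas1g held the letters too and are not printed. Whether the letters go with either pattern was not tested. The stretches run 5′ to 3′ along the gene's strand and end at or before the start, with the matched letters in capitals.
Ifit1, chr19:34640765-34640833, plus strand: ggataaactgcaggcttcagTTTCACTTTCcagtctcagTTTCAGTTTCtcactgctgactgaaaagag
Ifit3, chr19:34583353-34583436, plus strand: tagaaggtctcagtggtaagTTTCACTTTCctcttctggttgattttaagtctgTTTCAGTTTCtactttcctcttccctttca
Oas1a, chr5:120907526-120907565, minus strand: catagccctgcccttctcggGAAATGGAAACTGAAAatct
Stat2, chr10:128270256-128270305, plus strand: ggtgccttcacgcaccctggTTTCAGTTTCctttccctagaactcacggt
Isg15, chr4:156200855-156200916, minus strand: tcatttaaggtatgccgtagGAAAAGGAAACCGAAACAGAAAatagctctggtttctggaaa
Rsad2, chr12:26456543-26456592, minus strand: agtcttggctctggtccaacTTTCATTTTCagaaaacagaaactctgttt
Bst2, chr8:71537567-71537622, minus strand: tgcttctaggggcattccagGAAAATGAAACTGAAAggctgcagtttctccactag

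The first match in the Ifit1 window began 104 bases before the start and that of Rsad2 began 120 bases before it. In Isg15 3 matches lay in a row, each overlapping the next, in Oas1a and Bst2 a pair overlapped, and in Ifit3 the pair lay apart. The letters were not in the windows of Ifnar1, Ifnar2, Irf7, Irf9, Ifit2, Adar, Oasl1, Oasl2, Dtx3l, Ifi35, Ifi44 or Xaf1.

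Array medians were 6.60 to 6.66. Background is set at 5.67, the top array value among the probe sets of Kdm5d, Uty and Eif2s3y, genes of the Y chromosome that females do not carry. A pair of SM arrays stood apart. SM replicate 2 read 7.32 for Xist, the RNA of the inactive X chromosome, where the other arrays read 12.6 to 12.9, and its Y-linked probe sets stayed at or under 5.40. SM replicate 1 read low for many of the interferon-stimulated genes. Calls among the 33 genes that change without either array are given with and without it.

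The comparison asks how basal expression of these genes differs between the livers of the 2 strains. Most of them did not pass the test. In whole liver, a change in the number of cells of a type and a change in RNA per cell cannot be told apart. Differences are NZB minus SM in log2 expression, so that 1 is a 2-fold difference. A gene is counted through its brightest probe set and called where its limma p, adjusted by Benjamini-Hochberg over all 45037 probe sets, was under 0.05. Of the 33 genes, 3 were higher in NZB (Rsad2, Zbp1 and Bst2), 2 were lower (Ifnar1 and Adar) and 28 did not pass the test. The called share was 15.2%, against 18.3% of all 18193 genes counted the same way (7.09% higher and 11.2% lower). The arrays of the strains did not overlap for 8 of the 33, where 39.4% of all genes did not overlap.

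The median difference of the 33 genes was 0.047, against 0.021 over all genes, and 19 differences were above 0 and 14 below. No difference reached 2-fold, a size that was rare over all genes too (284 of 18193). The largest gaps were 0.55 for Zbp1 and -0.35 for Adar. The 95% intervals of the 33 differences all lay between -0.62 and 0.79, so each of them excluded a 2-fold difference in either direction. For 28 genes the interval also lay within 1.5-fold.

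Counted by probe set, 7 of the 55 rose in NZB and 3 fell, 18.2% in all, against 14.8% of all probe sets (6.09% higher and 8.69% lower). The strains did not overlap for 17 of the 55, with 34.3% of all probe sets as the background. Of 15 genes with several probe sets, 8 had differences of opposite sign among them. Strain-specific bases under a probe could lower its reading, and were not analysed here.

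**Figure D1:**
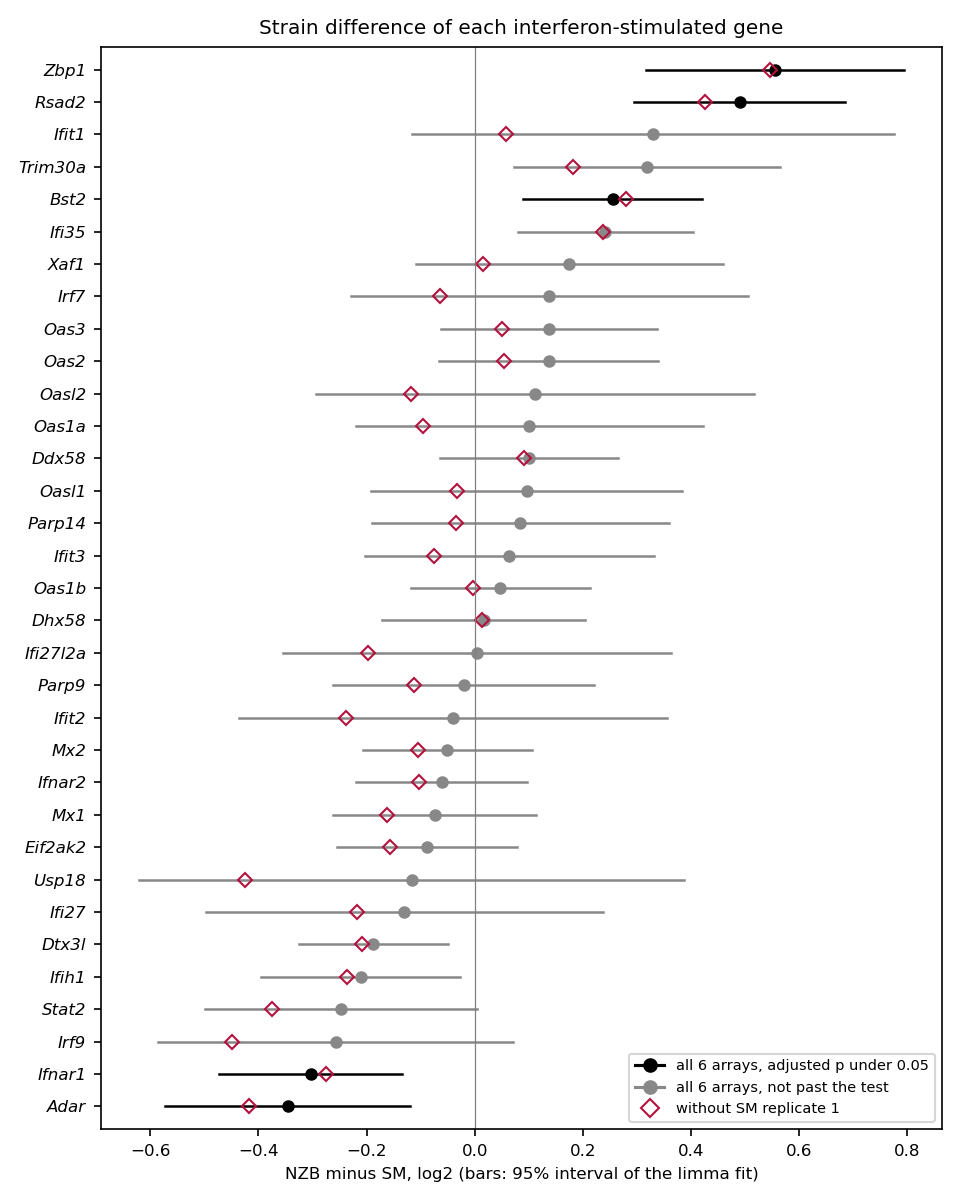
Differences between the strains (NZB minus SM, log2, x axis) for the 33 interferon-stimulated genes (y axis), with points for the estimate, bars for the 95% interval of the limma fit, black for an adjusted p under 0.05 and open diamonds for the estimate without SM replicate 1. Zbp1, Rsad2 and Bst2 lie above 0 and Ifnar1 and Adar below it in black, and 22 of the 33 diamonds lie below 0.

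In the text that follows, the 3 values of a strain are log2 levels of replicates 1, 2 and 3 in that order. Levels of different genes come from different probes and are not compared with one another. The number of arrays, 3 a strain, limits the precision of every value.

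Rsad2, which encodes viperin, an enzyme that makes a chain-terminating ribonucleotide, was higher in NZB through all 3 of its probe sets. The brightest read 7.85, 7.97 and 8.12 in SM and 8.35, 8.55 and 8.51 in NZB. Every NZB array lay above every SM array, and the difference was 0.49 (SE 0.086, adjusted p = 0.00596), a 1.40-fold higher level. The other two probe sets differed by 0.47 (SE 0.094, adjusted p = 0.0108) and 0.52 (SE 0.075, adjusted p = 0.00224). All 3 passed the test with any single array left out, and the brightest then differed by 0.43 (without SM replicate 1) to 0.56.

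Zbp1, a sensor of left-handed nucleic acids that can start cell death, was higher in NZB through both of its probe sets. The brighter one read 6.90, 7.02 and 6.83 in SM and 7.32, 7.38 and 7.71 in NZB. The strains did not overlap, NZB replicate 3 was the highest, and the difference was 0.55 (SE 0.11, adjusted p = 0.00851), or 1.47-fold. The dimmer one read 6.81, 6.91 and 6.97 in SM and 7.16, 7.23 and 7.13 in NZB and differed by 0.27 (SE 0.067, adjusted p = 0.0259). The brighter probe set passed with any array left out, while the dimmer one lost its call when any one array other than SM replicate 3 was removed (adjusted p = 0.0607 to 0.0916).

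Bst2, or tetherin, holds budding virus particles at the cell surface. It read 10.20, 10.16 and 10.10 in SM and 10.28, 10.47 and 10.48 in NZB, with all NZB arrays above the SM ones by a small margin. The difference was 0.26 (SE 0.073, adjusted p = 0.0471), or 1.19-fold. Removing any one array other than NZB replicate 1 ended the call (adjusted p = 0.0623 to 0.157, differences of 0.22 to 0.28). Alignment of the array medians (0.0783) and the replicate block (limma adjusted p = 0.0814) ended it too.

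The probe set paired with both Isg15 and Gm9706 stood further apart than any probe set of the 33 genes. ISG15 is a small protein that is attached to other proteins much as ubiquitin is. The probe set read 6.75, 6.98 and 6.95 in SM and 7.62, 8.02 and 7.96 in NZB, so that the lowest NZB array lay well above the highest SM array. The difference was 0.97 (SE 0.11, adjusted p = 0.000653), a 1.96-fold higher level in NZB, and it passed the test without any single array (0.90 to 1.10). Which of the genes it read cannot be told apart, so it is not counted above.

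Ifnar1, a chain of the receptor that type I interferons bind, was lower in NZB. It read 8.57, 8.48 and 8.50 in SM and 8.27, 8.29 and 8.07 in NZB, with no overlap and NZB replicate 3 lowest. The difference was -0.30 (SE 0.075, adjusted p = 0.0270), or 1.23-fold lower. Its dimmer probe set stayed between 5.40 and 5.65 on all arrays, near the background reading of 5.67, and differed by 0.051 (SE 0.075). The call of Ifnar1 ended without SM replicate 1 (adjusted p = 0.0694), SM replicate 2 (0.0634) or NZB replicate 3 (0.0895), after quantile normalization (0.0627) and when its probe sets were averaged (0.177, difference -0.13).

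Adar encodes an adenosine deaminase that edits double-stranded RNA and keeps cellular RNA from being sensed as foreign. Its brightest probe set read 8.77, 8.91 and 9.05 in SM and 8.67, 8.65 and 8.38 in NZB, which did not overlap, and differed by -0.35 (SE 0.10, adjusted p = 0.0495), or 1.27-fold lower in NZB. The other two pointed different ways. One read 7.66, 8.19 and 8.15 in SM and 8.13, 8.23 and 8.13 in NZB and differed by 0.16 (SE 0.13), and the dimmest differed by -0.19 (SE 0.16), with SM replicate 1 the lowest array in both. Removing any one array other than SM replicate 1 ended the call (adjusted p = 0.0636 to 0.155). Quantile normalization (0.137), the mean of the probe sets (0.509, difference -0.13) and the replicate block (limma adjusted p = 0.0867) ended it too.

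**Figure D2:**
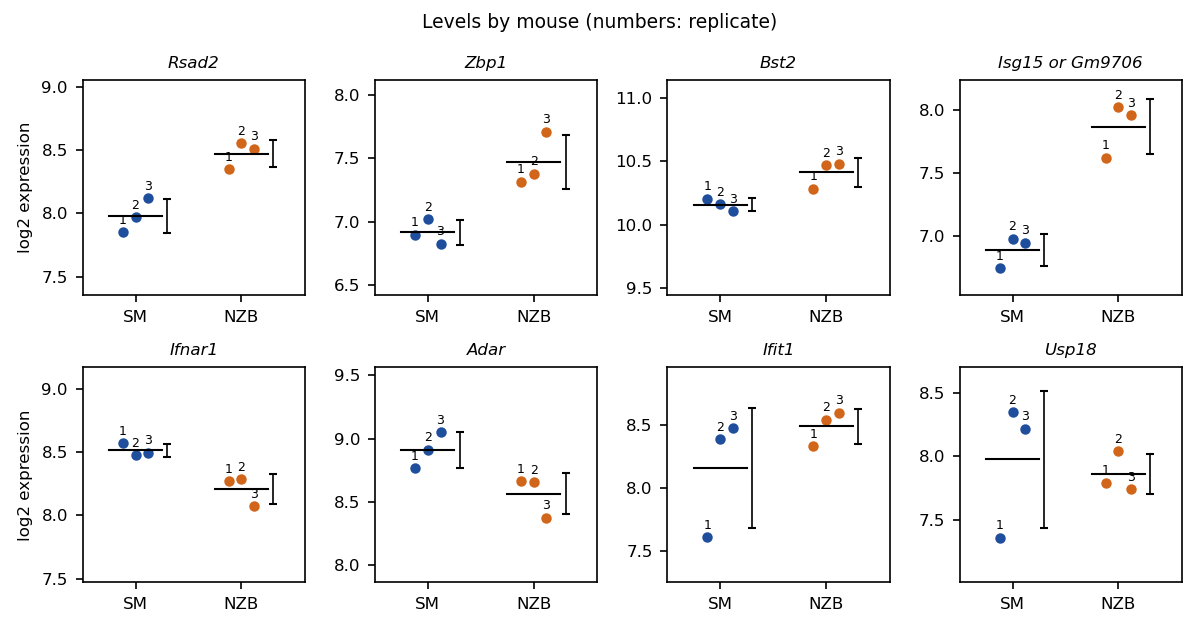
Log2 expression (y axis, 1.7 log2 units tall in every panel) of 8 probe sets in SM and NZB mice, with 1 numbered point per mouse, a line at the strain mean and a bar of 1 SD either way. Rsad2, Zbp1, Bst2 and the probe set shared by Isg15 and Gm9706 do not overlap between the strains, nor do Ifnar1 and Adar, while Ifit1 and Usp18 each have SM replicate 1 far below the other 5 mice.

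Among the other receptor and signalling genes, none was called. The second receptor chain, Ifnar2, read 11.19, 11.34 and 11.30 in SM and 11.30, 11.20 and 11.15 in NZB through its brightest probe set and differed by -0.061 (SE 0.070, adjusted p = 0.614). Its dimmer probe sets pointed the other way, at 0.12 (SE 0.065, adjusted p = 0.250) and 0.23 (SE 0.11, adjusted p = 0.208). STAT2 and IRF9 carry the signal into the nucleus. Stat2 read 8.64, 8.96 and 9.10 in SM and 8.73, 8.68 and 8.55 in NZB and differed by -0.25 (SE 0.11, adjusted p = 0.178). Its dimmer probe set differed by -0.36 (SE 0.12, adjusted p = 0.0846). That probe set passed the test with array weights (adjusted p = 0.0417) and without SM replicate 1 (-0.50, adjusted p = 0.0101). Irf9 read 8.26, 8.94 and 8.72 in SM and 8.37, 8.36 and 8.41 in NZB and differed by -0.26 (SE 0.15, adjusted p = 0.280). In both, SM replicates 2 and 3 lay above all NZB arrays, and SM replicate 1 lay within or below them. Without SM replicate 1 both were lower in NZB, at -0.38 for Stat2 (adjusted p = 0.0211) and -0.45 for Irf9 (adjusted p = 0.00904).

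IRF7 is the factor that amplifies interferon production. Irf7 read 8.26, 8.81 and 8.93 in SM and 8.61, 8.97 and 8.84 in NZB and differed by 0.14 (SE 0.16, adjusted p = 0.627). SM replicate 1 was the lowest array. Without it the difference was -0.063.

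Usp18 encodes the protease that removes ISG15 and also damps the receptor. It read 7.36, 8.35 and 8.22 in SM and 7.79, 8.04 and 7.74 in NZB, the widest spread within a strain among the 33 genes, at 0.99 between SM replicates 1 and 2. The difference was -0.12 (SE 0.22, adjusted p = 0.777). Without SM replicate 1 Usp18 was lower in NZB, at -0.43 (adjusted p = 0.0265).

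The IFIT proteins bind viral RNA and stop its translation. Ifit1 read 7.61, 8.39 and 8.47 in SM and 8.33, 8.54 and 8.59 in NZB and differed by 0.33 (SE 0.20, adjusted p = 0.309), with a 95% interval of -0.12 to 0.78. SM replicate 1 was the lowest array by a wide margin and the other 5 overlapped, so that without it the difference was 0.058. Ifit2 read 5.78, 6.45 and 6.31 in SM and 5.95, 6.04 and 6.43 in NZB, and its difference was -0.040 (SE 0.17). Ifit3 read 8.14, 8.63 and 8.49 in SM and 8.37, 8.57 and 8.51 in NZB, and its difference was 0.064 (SE 0.12). The 3 genes lie close together on chromosome 19 in the RefSeq gene order of GRCm38.p6, and SM replicate 1 was the lowest of 6 arrays in each of them.

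None of the remaining effectors was called. Mx1, a GTPase that blocks influenza virus, read 4.69 to 4.97 on all arrays, under the background reading, so no fold is given for it. Mx2, its relative, read 7.92, 8.10 and 8.08 in SM and 7.94, 8.04 and 7.96 in NZB and differed by -0.051 (SE 0.069). Eif2ak2, which encodes the kinase PKR, read 7.07, 7.29 and 7.26 in SM and 7.14, 7.13 and 7.08 in NZB and differed by -0.088 (SE 0.074), and its 3 probe sets differed by -0.26 to 0.091. Trim30a, of the TRIM family, read 6.43, 6.79 and 6.88 in SM and 7.01, 6.99 and 7.05 in NZB and differed by 0.32 (SE 0.11, adjusted p = 0.0848). Its NZB arrays lay above the SM ones and within 0.056 of one another, and it passed the test without SM replicate 3 (0.41, adjusted p = 0.0359). A second probe set of Trim30a differed by -0.022 (SE 0.076) and the one shared with Trim30d by -0.25 (SE 0.099), so the readings of this gene disagreed. Trim30a has near-identical copies that its probes may also read.

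OAS proteins that are active enzymes make short chains of adenosine that switch on an RNA-cutting enzyme, and the OASL proteins are their relatives. None of the 6 measured was called by limma, and all 6 differences were between 0.047 and 0.14. Oas1a read 7.94, 8.54 and 8.52 in SM and 8.46, 8.43 and 8.42 in NZB, with 5 arrays close together and SM replicate 1 well below. Its difference was 0.10 (SE 0.14) with all arrays and -0.095 without SM replicate 1. Oas2 read 7.85, 8.11 and 8.08 in SM and 8.04, 8.15 and 8.26 in NZB and differed by 0.14 (SE 0.090), and Oas3 read 7.09, 7.26 and 7.45 in SM and 7.38, 7.42 and 7.42 in NZB and differed by 0.14 (SE 0.089). In both, SM replicate 1 was again the lowest.

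Oasl1 read 7.25, 7.62 and 7.65 in SM and 7.41, 7.80 and 7.60 in NZB, and its difference was 0.096 (SE 0.13). Oasl2 read 5.57, 6.35 and 6.17 in SM and 5.95, 6.29 and 6.19 in NZB, and its difference was 0.11 (SE 0.18). Both turned negative without SM replicate 1, at -0.033 and -0.12. Oas1b, known as the flavivirus resistance gene of mice, read 7.50, 7.66 and 7.65 in SM and 7.57, 7.64 and 7.74 in NZB, the narrowest range over all 6 arrays in the family, and differed by 0.047 (SE 0.073). The Oas1 genes are close copies, so the copy behind a probe set is uncertain. The 95% intervals of the family lay between -0.29 and 0.52.

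The cytoplasmic RNA sensors other than Zbp1 were not called. Ifih1, which encodes MDA5, the sensor of long double-stranded RNA, read 9.39, 9.51 and 9.43 in SM and 9.13, 9.39 and 9.16 in NZB and differed by -0.21 (SE 0.081, adjusted p = 0.122). The top NZB array lay just inside the SM range, and without NZB replicate 2 the gene was lower in NZB (-0.29, adjusted p = 0.0422). Ddx58, which encodes RIG-I, the sensor of uncapped RNA ends, read 9.43, 9.57 and 9.35 in SM and 9.51, 9.61 and 9.52 in NZB and differed by 0.10 (SE 0.073). Dhx58, which encodes their relative LGP2, read 7.49, 7.47 and 7.52 in SM and 7.50, 7.68 and 7.36 in NZB and differed by 0.016 (SE 0.083). Through the brightest probe sets, SM replicate 1 lay close to the other SM arrays in these RNA sensors, with gaps of -0.078 to -0.0098 to their mean. Of the dimmer probe sets of Dhx58, 1 read 5.62, 5.98 and 5.80 in SM and 1 read 6.10, 5.99 and 5.93.

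Parp14, Dtx3l and Parp9 are neighbours on chromosome 16 in the RefSeq gene order, and the products of Dtx3l and Parp9 act together as a ubiquitin ligase. Through their brightest probe sets none was called. Dtx3l read 9.46, 9.49 and 9.56 in SM and 9.33, 9.34 and 9.27 in NZB, without overlap, and differed by -0.19 (SE 0.061, adjusted p = 0.0729). It passed after alignment of the array medians (-0.22, adjusted p = 0.0373), while its dimmer probe set read 8.76, 9.33 and 9.35 in SM and 9.19, 9.27 and 9.15 in NZB and differed by 0.058 (SE 0.14). Parp9 read 9.81, 9.94 and 10.23 in SM and 9.87, 10.06 and 9.98 in NZB and differed by -0.021 (SE 0.11).

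Parp14 encodes a mono-ADP-ribosyltransferase. It read 8.25, 8.71 and 8.50 in SM and 8.42, 8.74 and 8.55 in NZB and differed by 0.084 (SE 0.12), whereas its dimmer probe set read 5.92, 6.06 and 6.09 in SM and 6.22, 6.36 and 6.25 in NZB and was higher in NZB, by 0.25 (SE 0.072, adjusted p = 0.0456). Removing any one array other than SM replicate 3 ended that call (adjusted p = 0.0691 to 0.148). Aligned medians (0.0605), quantile normalization (0.0684) and the replicate block (limma adjusted p = 0.0536) ended it too.

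Of the other interferon-induced genes, Ifi35 came nearest to the threshold. IFI35 is a leucine zipper protein that regulates innate signalling. Its brightest probe set read 10.30, 10.33 and 10.29 in SM and 10.46, 10.68 and 10.50 in NZB and differed by 0.24 (SE 0.072, adjusted p = 0.0533), and no probe set of the 3 overlapped between the strains. The other two differed by 0.21 (SE 0.073) and 0.21 (SE 0.072). With 1 probe set per gene in the fit, Ifi35 passed the test (adjusted p = 0.0391), as it did after quantile normalization (0.0254), when its probe sets were averaged (0.0455) and when dim probe sets were dropped (0.0489).

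Xaf1 encodes a partner of the apoptosis inhibitor XIAP, and its probe sets disagreed. The brighter one read 8.48, 8.91 and 9.01 in SM and 8.93, 9.07 and 8.93 in NZB and differed by 0.17 (SE 0.13). The dimmer one read 6.74, 6.75 and 6.62 in SM and 6.38, 6.52 and 6.35 in NZB and was lower in NZB, at -0.29 (SE 0.073, adjusted p = 0.0304), a call that held only without SM replicate 3 or NZB replicate 2 among the single arrays removed (otherwise adjusted p = 0.0738 to 0.114). Ifi27, which encodes a small membrane protein, read 9.69, 9.78 and 10.12 in SM and 9.42, 10.07 and 9.72 in NZB and differed by -0.13 (SE 0.16). Its neighbour on chromosome 12, Ifi27l2a, read 7.84, 8.38 and 8.50 in SM and 8.12, 8.20 and 8.42 in NZB and differed by 0.0039 (SE 0.16). The NZB mice spanned 0.65 in Ifi27, the widest NZB spread among the 33 genes.

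SM replicate 1 read low for many of these genes. It was the lowest of the 3 SM arrays for 27 of the 33 genes (81.8%), where it was lowest for 30.2% of all genes. It was the lowest of all 6 arrays for 21 of them, or 63.6%, against 17.9% of all genes. The median gap between SM replicate 1 and the mean of the other SM arrays was -0.26 over the 33 genes and 0.016 over all genes. A gap below -0.5 was found for 8 of the 33 (24.2%) and for 0.489% of all genes. With 1 mouse no test of this is possible, and the genes in the next sentences were chosen after their values were seen.

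The 8 genes with a gap beyond -0.5 were Usp18 (-0.93), Ifit1 (-0.82), Oasl2 (-0.69), Irf7 (-0.60), Ifi27l2a (-0.60), Ifit2 (-0.60), Oas1a (-0.59) and Irf9 (-0.57). They span a signalling protease, transcription factors, RNA-binding effectors and OAS enzymes on several chromosomes. These gaps are those of the brightest probe sets. SM replicate 1 was also low in dimmer probe sets of Dtx3l (8.76, 9.33 and 9.35 in SM) and Adar (7.66, 8.19 and 8.15). It was not low in that of Xaf1 (6.74, 6.75 and 6.62). The 6 genes in which SM replicate 1 was not the lowest SM array were Ddx58, Zbp1, Ifi35, Dhx58, Bst2 and Ifnar1, with gaps of -0.031 to 0.083. Of the 5 called genes, 3 belong to these 6. The 6 were picked from the same SM values that enter the test, so no conclusion is drawn from this overlap. The spread within SM exceeded that within NZB for 23 of the 33 genes (69.7%, against 54.8% of all genes), and the median SD was 0.18 in SM and 0.11 in NZB, beside 0.083 and 0.075 over all genes.

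**Figure D3:**
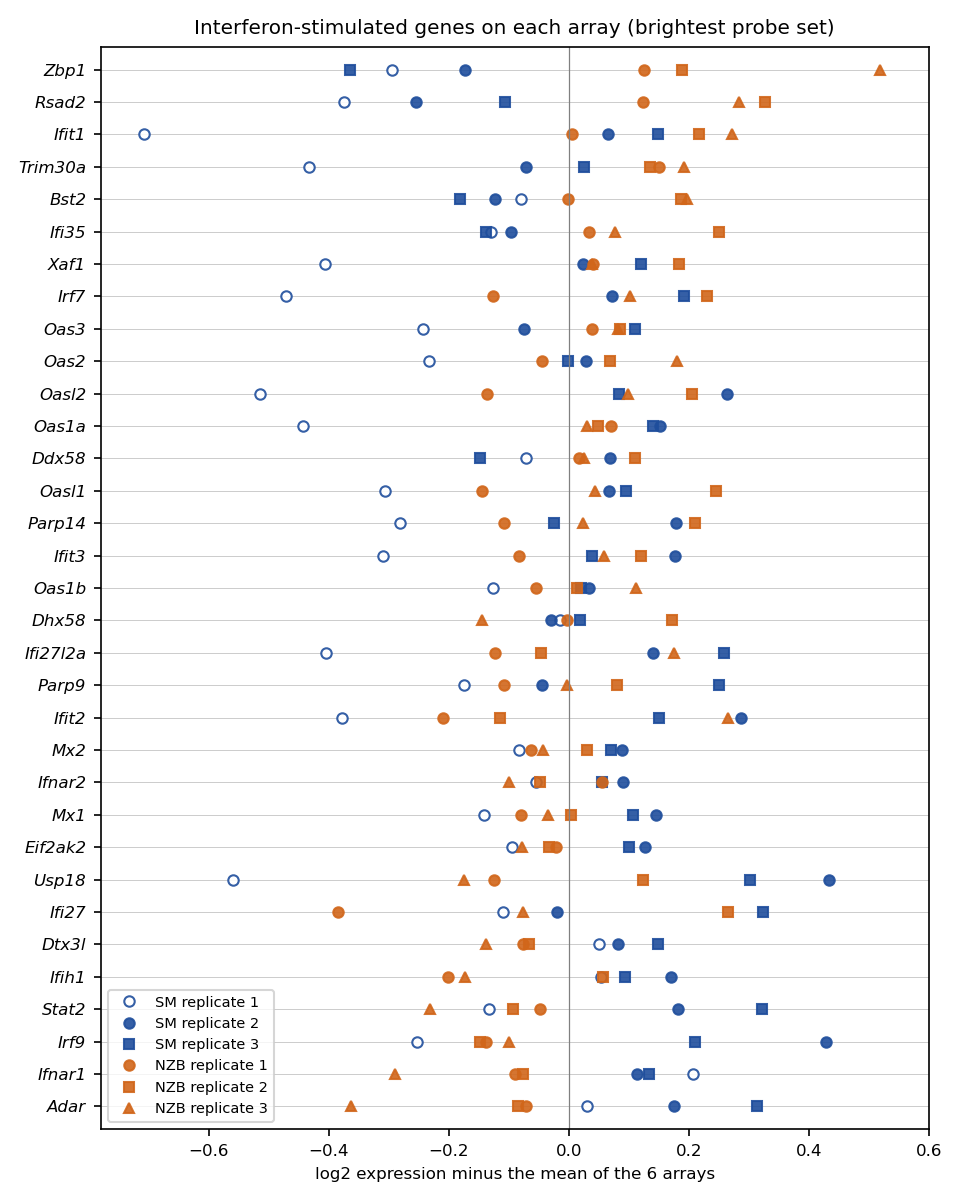
Log2 expression of each of the 33 genes on each of the 6 arrays, minus that gene's mean over the arrays (x axis), with genes ordered by their difference between the strains (y axis), blue for SM and orange for NZB. The open circles of SM replicate 1 are the leftmost points for 21 genes, while the filled SM and the NZB points mostly overlap.

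The sign of the median of the set turned without this array. Against SM replicate 1 alone, the NZB mean was higher for 29 of the 33 genes, with a median difference of 0.25. Against SM replicates 2 and 3 it was higher for 11 and 10 of the 33, with medians of -0.10 and -0.087. Over all genes the corresponding shares were 52.3%, 56.3% and 52.6%. These contrasts share the NZB arrays, and each rests on 1 SM mouse.

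Without SM replicate 1 the median difference of the set was -0.095, and 22 of the 33 differences were below 0. The calls were then 2 higher (Rsad2 and Zbp1) and 4 lower (Adar, Stat2, Irf9 and Usp18), with 6.32% of all genes called higher and 8.95% lower in the same fit. Without SM replicate 2 the calls were 2 higher and 0 lower (limma, where 5 were higher and 3 lower at an unadjusted p under 0.05), with 4.14% and 7.12% of all genes. The median gap of SM replicate 2 over the 33 genes was 0.13, against -0.014 over all genes. That of SM replicate 3 was nearly the same, at 0.12, against 0.00062 over all genes. Both gaps are taken to a mean that includes the low SM replicate 1. The mean level of the 33 genes was 8.40 on SM replicate 2 and 8.40 on SM replicate 3.

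NZB replicate 1 leaned the same way within its own strain, by less. It was the lowest NZB array for 21 of the 33 genes (63.6%, against 36.7% of all genes), with a median gap of -0.12. NZB replicate 2 was the highest for 19 of them (57.6%, against 34.3%), with a median gap of 0.089. Among the SM arrays, replicates 2 and 3 were highest for 17 and 14 of the 33 genes.

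**Figure D4:**
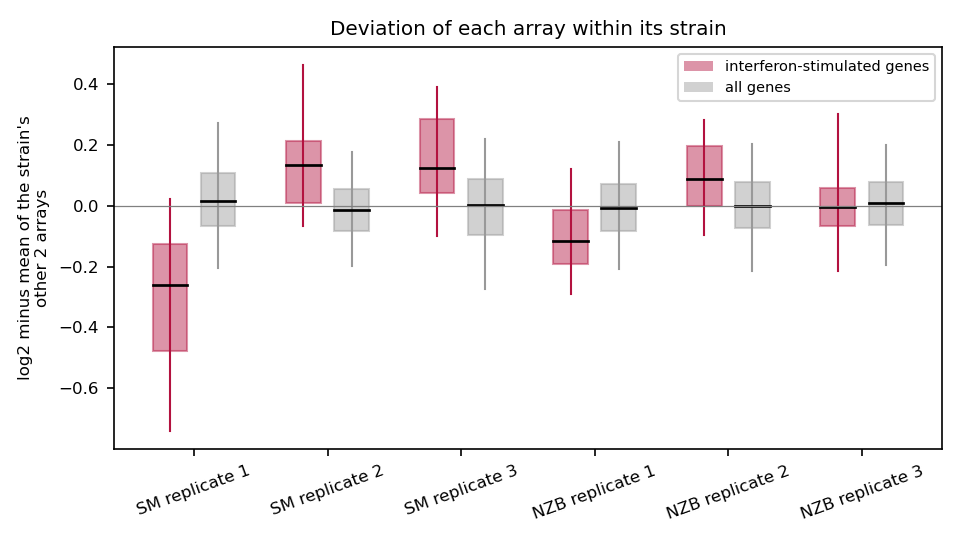
Gap between each array and the mean of the other arrays of its strain (log2, y axis) for the 33 interferon-stimulated genes (red) and for all 18193 genes (grey), with boxes from the lower to the upper quartile, a line at the median and whiskers from the 5th to the 95th percentile over genes. The red box of SM replicate 1, with a median of -0.26, lies wholly below 0, and the grey boxes have medians between -0.014 and 0.016.

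In the rest of the pathway, of the 9 measured interferon genes none was called by limma, 1 had an unadjusted p under 0.05, and 4 stayed under the background reading on all arrays. The beta interferon gene Ifnb1 read 6.35, 6.35 and 6.53 in SM and 6.24, 6.47 and 6.29 in NZB, where NZB replicate 2 lay within the SM range and the other NZB arrays below it. Among 8 receptor chains, JAK kinases and STATs, 1 was lower (12.5% called, against 18.3% of all genes). This was Jak1, a kinase bound to the receptor, which read 10.08, 10.09 and 10.15 in SM and 9.81, 9.74 and 9.76 in NZB (-0.34, SE 0.060, adjusted p = 0.00616). It lay lower in every NZB mouse and passed without any single array, though not when its probe sets were averaged.

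Of 6 other interferon regulatory factors, 1 was higher (16.7% called, against 18.3% of all genes), and the median difference was 0.20. Irf1, a factor that interferon gamma strongly induces, read 9.84, 9.69 and 9.63 in SM and 9.93, 10.10 and 10.18 in NZB (0.35, SE 0.085, adjusted p = 0.0235). Among single arrays removed, only replicate 1 of either strain left the call in place (otherwise adjusted p = 0.0606 to 0.0936). Irf2 was lower without SM replicate 3, but was not called with all arrays (-0.37, SE 0.15, adjusted p = 0.133).

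Among 19 sensing adaptors and kinases, 3 were lower and none was higher (15.8% called, against 18.3% of all genes), with a median of -0.040. The median was 0.014 without SM replicate 2, -0.021 without NZB replicate 1 and -0.083 without SM replicate 3. They were Rnf135, a ubiquitin ligase of the RIG-I route (-0.37, SE 0.069, adjusted p = 0.00753), Mavs, the mitochondrial adaptor of the RNA sensors (-0.25, SE 0.068, adjusted p = 0.0394), and Myd88, the adaptor of most Toll-like receptors (-0.23, SE 0.065, adjusted p = 0.0423). Mavs read 10.08, 9.90 and 9.96 in SM and 9.69, 9.75 and 9.76 in NZB, without overlap between the strains. Only Rnf135 passed without any single array. Mavs lost its call without each array in turn (adjusted p = 0.0525 to 0.111), and Myd88 when one other than SM replicate 3 was removed (0.0642 to 0.143). The lower genes of the list numbered 1 or 2 when any single array was left out, and 1, Unc93b1, was higher without NZB replicate 1.

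The 15 measured negative regulators went both ways, with 2 higher and 3 lower (33.3% called, against 18.3% of all genes). Their median was -0.0055 and lay between -0.060 and 0.0035 as single arrays were left out. Rnf125, a ubiquitin ligase that marks RIG-I for destruction, read 10.64, 11.15 and 11.13 in SM and 12.24, 11.93 and 12.16 in NZB and was 2.20-fold higher in NZB (1.13, SE 0.14, adjusted p = 0.000958). Socs3, a feedback inhibitor of cytokine receptors, was also higher (0.47, SE 0.12, adjusted p = 0.0306), a call kept only when the array removed was replicate 1 of either strain (otherwise adjusted p = 0.0565 to 0.117). Nlrc5, which also drives MHC class I genes, read 8.51, 8.39 and 8.41 in SM and 7.64, 7.90 and 7.51 in NZB and fell 1.68-fold in NZB (-0.75, SE 0.099, adjusted p = 0.00137). The deubiquitinase gene Cyld (-0.38, SE 0.071, adjusted p = 0.00753) and the phosphatase gene Ptpn11 (-0.34, SE 0.077, adjusted p = 0.0202) were lower too. Ptpn11 lost its call with SM replicate 2, NZB replicate 1 or NZB replicate 2 removed (0.0515 to 0.0718), and the lower genes numbered 2 to 4 as single arrays were left out.

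A list of 51 further measured interferon-stimulated genes went in both directions, and 2 of them differed by 2-fold or more. Of these, 7 were higher and 5 were lower (23.5% in all, against 18.3% of all genes), with a median of 0.068. The median was 0.040 without SM replicate 1 and 0.033 without NZB replicate 3. Ly6e, a membrane protein that affects virus entry, read 11.58, 11.59 and 11.53 in SM and 12.32, 12.68 and 12.55 in NZB and was 1.93-fold higher (0.95, SE 0.091, adjusted p = 0.000244). Plac8 was 1.89-fold higher (0.91, SE 0.074, adjusted p = 9.5e-05) and Tdrd7, an inhibitor of autophagy that viruses use, was 1.41-fold higher (0.50, SE 0.059, adjusted p = 0.000779). Trim34a, of the TRIM family, read 8.12, 8.62 and 8.37 in SM and 6.46, 6.52 and 6.50 in NZB and fell 3.67-fold in NZB (-1.88, SE 0.11, adjusted p = 1.7e-05). It has a near-identical copy that its probes may read.

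Samd9l, a growth-restraining gene, fell 2.12-fold (-1.09, SE 0.079, adjusted p = 5.4e-05), and Nmi, a partner of STATs, fell 1.36-fold (-0.44, SE 0.083, adjusted p = 0.00800). These 6 genes passed without any single array. Trim21 (-0.36) and Ifitm2 (-0.24) completed the lower genes, and Ifitm2 lost its call without each array in turn (adjusted p = 0.0611 to 0.152). The higher genes of the list numbered 4 without SM replicate 3 or any of the NZB replicates. SM replicate 1 was the lowest SM array for 21 of the 51 (41.2%), with a median gap of -0.037.

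Interferon-inducible GTPases attack the membranes around intracellular microbes, and many respond to interferon gamma more than to type I interferons. Of 9 measured, 3 were higher, 1 was lower (44.4% called, against 18.3% of all genes), and the median difference was 0.40. The median was 0.26 without NZB replicate 2 and 0.21 without NZB replicate 3. Gbp6 read 7.43, 7.70 and 7.57 in SM and 9.69, 9.45 and 10.21 in NZB and was 4.67-fold higher in NZB (2.22, SE 0.17, adjusted p = 6.4e-05). Ifi47 read 8.88, 9.02 and 8.93 in SM and 9.78, 10.12 and 10.12 in NZB and was 2.09-fold higher (1.06, SE 0.098, adjusted p = 0.000203). Every NZB mouse lay above every SM mouse in both.

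Gbp8 was higher as well (0.48, SE 0.097, adjusted p = 0.0107), and Gbp3 was lower (-0.46, SE 0.10, adjusted p = 0.0163). Gbp8 lost its call without NZB replicate 3 (adjusted p = 0.0513), and Gbp3 lost its without SM replicate 2 or NZB replicate 1 (0.0556 to 0.0664). Irgm2 was called higher only without NZB replicate 1 among the single arrays removed. NZB replicate 1 was the lowest NZB array for 7 of the 9, with a median gap of -0.33. GBP genes have close copies, so the copy behind a probe set is uncertain.

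Markers of other cell types also differed between the strains, in both directions. Ranges are the mean log2 level of a list over the arrays of SM and then of NZB, and the shares over all genes were 7.09% higher and 11.2% lower. Of 5 pan-leukocyte markers 3 (Ptprc, Coro1a and Cd52) were higher in NZB (7.47 to 7.55 and 7.93 to 8.18), and the count was 3 without any single array too. Of 12 Kupffer cell and macrophage markers 8 were higher and 1, Marco, was lower (9.16 to 9.37 and 9.43 to 9.66). The higher ones numbered 5 without SM replicate 1 and 4 without NZB replicate 2 or 3, and the call of Marco ended without NZB replicate 1 or 3. Of 7 monocyte and neutrophil markers 2 (S100a8 and S100a9) were higher (7.34 to 7.42 and 7.54 to 7.69).

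Of 9 B and plasma cell markers 4 (Ighm, Jchain, Ms4a1 and Pou2af1) were higher (6.41 to 6.44 and 7.41 to 7.80). Ighm and Jchain, which encode chains of secreted antibody, were 20.3-fold and 19.5-fold higher, while the median difference of the list was 0.29. Of 11 T and NK cell markers 5 (Cd3d, Cd3e, Cd3g, Nkg7 and Klrd1) were higher (6.26 to 6.37 and 6.48 to 6.55). They numbered 2 without SM replicate 1, 1 without SM replicate 2, 3 without NZB replicate 1 and 2 without NZB replicate 2 or 3. Pou2af1, Cd3g, Cd2 and Klrd1 were under background on all arrays, so 3 of these calls rest on readings there. None of 7 plasmacytoid dendritic cell markers was called (2 had an unadjusted p under 0.05 in limma, and 2 were higher without SM replicate 3), at 6.79 to 6.91 and 6.95 to 7.01.

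Of 8 markers of sinusoidal endothelium 3 (Stab2, Pecam1 and Gpr182) were higher and 3 (Clec4g, Lyve1 and Bmp2) were lower (8.88 to 8.99 and 8.88 to 8.99), with a median of -0.10. Of 7 stellate cell markers 1, Rgs5, was lower (8.68 to 9.04 and 8.56 to 8.80), and the median was -0.26. It was -0.082 without NZB replicate 2, and 2 markers were higher without SM replicate 1. Of 3 erythroid markers 1, Alas2, was lower, at -1.09, a call that ended without NZB replicate 1 or 3. Of 6 hepatocyte markers 1, Hnf4a, was lower, at -0.38, a call that ended without SM replicate 2. None of 4 cholangiocyte markers was called (1 had an unadjusted p under 0.05 in limma). The part of any of these cells in Rsad2, Zbp1, Bst2, the probe set shared by Isg15, or the GTPases was not tested.

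SM replicate 1 also differed from the other SM arrays in some of these lists. Its median gap was 0.23 in stellate cell markers, where it was the highest SM array for 5 of 7. The gap was -0.17 in macrophage markers, where the array was the lowest for 8 of 12, and -0.10 in monocyte and neutrophil markers (4 of 7). In erythroid markers the median gap was -0.15 (lowest for 2 of 3), but the other marker lay 0.82 above the mean of the other SM arrays. In the remaining lists the gap lay between -0.060 (sinusoidal endothelium) and 0.035 (cholangiocytes), with 0.0023 in pan-leukocyte and -0.017 in hepatocyte markers. NZB replicate 1 was the lowest NZB array for 9 of the 12 macrophage markers and for 4 of the 5 pan-leukocyte markers, with gaps of -0.15 and -0.24. The part of these cell types in the array pattern was not tested.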

How the data were processed

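The value table held 1 column per sample, and all 6 arrays were used. The authors deposited log2 values made by RMA, per the submitters' processing notes. RMA as a method corrects background, normalizes between arrays and summarizes probes into probe sets. That the scale is log2 was read from the values, while for RMA itself a version and settings were not given in the sources used here. Depth does not apply to arrays, whose number limits the precision. Probe sets were named from the platform annotation, gene order and promoters came from RefSeq, and sequence differences between the strains under the probes were not analysed here.

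The test of NZB against SM was limma's (version 3.58.1, R 4.3.3, functions lmFit and eBayes, all 45037 probe sets, Benjamini-Hochberg, threshold 0.05, two-sided), checked on simulated data. An exact permutation test of 3 against 3 cannot go below p = 0.1 and was not used. The labels call the samples biological replicates without saying whether each is 1 mouse. The p-values set each difference against the spread between these samples, moderated by limma over all probe sets. They do not tell whether that spread is one between single mice. A gene was counted through its brightest probe set that is paired with it alone.

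Named genes were members called through any probe set, members whose arrays of 1 strain lay over 1 log2 unit apart (no member did), and up to 3 genes per direction from each wider list. Other genes were described for completeness or chosen after their values were seen. The members and lists were chosen with earlier results of these data known. Alternatives were each array left out, aligned medians, quantile normalization, trended and robust variances, array weights, 1 probe set or the mean of the probe sets per gene, removal of probe sets under background or marked for cross-hybridization, and the replicate number as a block.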

Additional observations from a re-analysis of the deposited data

How the results depend on the processing

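The genes higher in NZB numbered 2 to 4 over all alternatives, against 3, and Rsad2 and Zbp1 were called in all 16 settings. The genes lower in NZB, 2 with all arrays, numbered 0 to 4 as single arrays were left out, 0 after quantile normalization (limma, with 2 lower at an unadjusted p under 0.05) and 0 with the mean of a gene's probe sets. The median difference ran from -0.095 without SM replicate 1 to 0.093 without SM replicate 2. No called gene changed direction. Of all 18193 genes, 1290 were higher and 2040 lower, against 754 and 1296 without SM replicate 2, 834 and 1399 without NZB replicate 2 and 722 and 1195 without NZB replicate 3. Of the sensing adaptors, 4 were lower with aligned medians and 1 after quantile normalization, against 3. Of the further interferon-stimulated genes, 4 were higher with aligned medians, against 7. Of all calls, 38.7% were higher in NZB, 29.6% after the array medians were aligned and 47.0% after quantile normalization.

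Deviations of same-numbered mice correlated at 0.037, -0.055 and 0.025, and those of the other pairs at -0.11 to 0.083. These values do not show that the numbers pair the mice, and shared handling was not tested. With the replicate number as a block, 2 genes were higher and 1 was lower. The block left 1 sensing adaptor lower, made 5 negative regulators lower, against 3, and ended the call of Irf1. The cause of these changes was not tested. With 3 mice a strain, differences of the size of the intervals given are the limit of what these arrays can show.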
